A study of Mus musculus with 6 samples.

Results

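Ly6d, Tff3 and Sox9 were followed as 3 named genes out of the 1834 genes of a deposited liver expression table. They were picked by symbol, with their difference between the same libraries already known, so their levels and fold changes are given as a description and carry no test. The AAV-Ly6d group holds 3 liver libraries of mice labelled with the genotype Ly6d overexpression, and the AAV-GFP group holds 3 liver libraries of mice labelled WT that received the vector with green fluorescent protein. An adeno-associated virus (AAV) vector carries a gene into cells, mostly hepatocytes when it reaches the liver, and both groups received one and ate the same diet. By its title, the study asks how Ly6d overexpression acts in metabolic dysfunction-associated steatotic liver disease. The labels give no diet name, strain, sex, age, vector dose, vector promoter or time after injection. They do not name the animal behind each library either, so the spread between libraries may be technical.

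Ly6d is a small cell-surface protein of the Ly6 family, held in the membrane by a glycosylphosphatidylinositol (GPI) anchor, and in mice it marks B-lineage progenitors and some epithelial cells. Tff3 is a secreted trefoil peptide that goblet cells release with mucins and that takes part in mucosal repair. Sox9 is a transcription factor of bile duct cells and of hepatocytes with progenitor traits, and in the liver it acts downstream of Notch and Hippo-YAP signalling. In a whole liver these 3 genes are therefore low, and bile duct cells or other minor cell types can contribute much of their RNA. Fewer cells of a type and less RNA per cell cannot be told apart in such samples.

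The 3 genes have compact, non-overlapping loci in the GENCODE M21 annotation of GRCm38. Ly6d (ENSMUSG00000034634) spans positions 74762056 to 74763620 of chromosome 15, minus strand, with 3 exons and 744 exonic bases. Tff3 (ENSMUSG00000024029) spans positions 31125306 to 31129646 of chromosome 17, minus strand, with 3 exons and 493 exonic bases. Sox9 (ENSMUSG00000000567) spans positions 112782224 to 112787760 of chromosome 11, plus strand, with 3 exons and 4135 exonic bases. Each has 1 annotated transcript and 0 annotated genes overlap any of them on either strand. Of the 31-base words in the transcripts of Ly6d and Tff3, 0 occur in a transcript of another gene, and for Sox9 1.34% do, some of them in its relative Sox10. Near-identical copies were thus not found for any of the 3. A count of Ly6d reads cannot tell the vector transcript and the transcript of the mouse's own gene apart.

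The table held between 3248078 and 4359932 recovered reads per library, and its values are read counts divided by a size factor per library ("normalised read count"). Its genes appear to have been selected for a difference between these libraries. The order of its rows matched that of p-values from DESeq2 with the authors' size factors (rank correlation 0.987 over the genes, given as a description), and 0.0911 was the highest of those p-values. Among 1780 tested genes limma called 782 at an adjusted p under 0.05, with 15.9% of tested genes higher and 28.0% lower in AAV-Ly6d, and these shares hold inside the table only. The words rose and fell refer to that call. If the table was selected in this way, adjusting inside it does not hold the share of false calls at 0.05. Calls and adjusted p-values therefore describe this table only. Of the calls 36.2% were higher on the deposited scale and 69.2% after each library was rescaled by the median ratio, which moved the median log2 fold change over all 1780 genes to -0.33, against -0.67 as deposited. The share was 69.1% in edgeR with TMM factors, 74.2% in DESeq2 and 25.2% in limma without a mean-variance trend. Leaving out AAV-Ly6d replicate 1, 2 or 3 left 0, 104 or 19 calls in that order, the 0 with 773 genes at an unadjusted p under 0.05. Leaving out AAV-GFP replicate 1, 2 or 3 left 134, 607 or 139. A single library stood apart on the first principal component, AAV-GFP replicate 2, at -49.9, where replicates 1 and 3 of its group were at -15.4 and -18.1.

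Ly6d, the gene carried by the vector, was the check of the labels, and its level separated the groups in every library. Its normalised read count was 3181, 1799 and 3275 in AAV-Ly6d replicates 1, 2 and 3, against 56.1, 9.68 and 182 in AAV-GFP replicates 1, 2 and 3. The lowest AAV-Ly6d value was 9.87 times the highest AAV-GFP value, and the groups did not overlap. The AAV-GFP level was not uniform. AAV-GFP replicate 2 held 9 Ly6d reads, with an exact Poisson 95% interval of 4.12 to 17.1, and AAV-GFP replicate 3 held 216, with an interval of 188 to 247. These intervals cover counting error only. The mean was 2751 ± 826 in AAV-Ly6d and 82.7 ± 89.3 in AAV-GFP (SD, n = 3 each), and the ratio of means was 33.3. That ratio depended on 1 library, being 83.6 when AAV-GFP replicate 3 was left out.

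**Figure D1:**
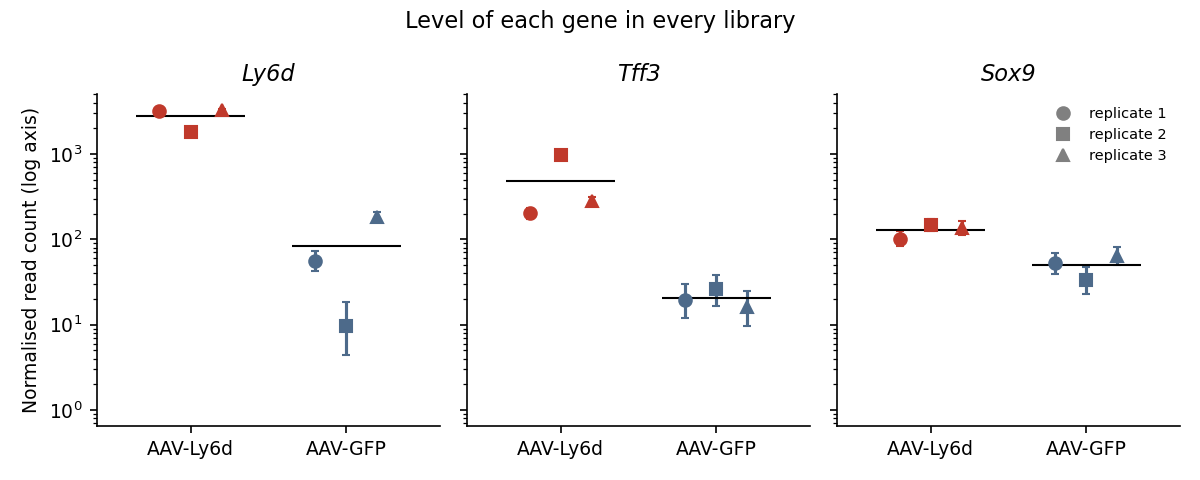
Normalised read count of Ly6d, Tff3 and Sox9 in every library (log axis), with AAV-Ly6d left of AAV-GFP in each panel. Points are libraries with exact Poisson 95% intervals, which cover counting error only, and black lines are group means. The AAV-Ly6d libraries lie above all AAV-GFP libraries for each gene, with the smallest gap for Sox9 and a single high AAV-Ly6d library for Tff3.

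Tff3, the secreted trefoil peptide, was low in all AAV-GFP livers and far higher in all AAV-Ly6d livers. It had 201, 963 and 279 normalised reads in AAV-Ly6d replicates 1, 2 and 3, against 19.4, 25.8 and 16.0 in AAV-GFP replicates 1, 2 and 3. The AAV-GFP libraries were low and close to each other, whereas AAV-Ly6d replicate 2 stood well above the other AAV-Ly6d libraries. The ratio of group means was 23.6, and it was 11.8 when AAV-Ly6d replicate 2 was left out. Even the lowest of the AAV-Ly6d values was 7.79 times the highest of the AAV-GFP values. The log2 fold change was 4.17 (SE 0.56) with all libraries and 3.50 (SE 0.38) without AAV-Ly6d replicate 2. In all, 1429 reads in AAV-Ly6d and 63 reads in AAV-GFP lie behind these values.

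Sox9, the ductal transcription factor, differed much less than the other 2 genes. It had 102, 148 and 136 normalised reads in AAV-Ly6d replicates 1, 2 and 3, against 52.2, 33.4 and 64.1 in AAV-GFP replicates 1, 2 and 3. The groups did not overlap, and the lowest AAV-Ly6d value was 1.59 times the highest AAV-GFP value. The Poisson 95% interval of that AAV-Ly6d library, 83.5 to 124 normalised reads, did not reach that of AAV-GFP replicate 3, 50.5 to 80.3. Such intervals cover counting error only and not the spread between libraries. The mean was 129 ± 24.0 in AAV-Ly6d and 49.9 ± 15.5 in AAV-GFP (SD, n = 3 each), a ratio of 2.58. Its log2 fold change was 1.38 (SE 0.34), and 1.12 (SE 0.26) without AAV-GFP replicate 2.

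All 3 genes were on the higher side in AAV-Ly6d, where 35.2% of tested genes had non-overlapping groups in that direction. All 3 also passed limma's threshold, but they were picked for this contrast, so nothing is read from these counts. The call of Sox9 was lost with AAV-Ly6d replicate 1, 2 or 3 or AAV-GFP replicate 1 left out, that of Ly6d with AAV-Ly6d replicate 1 or 3 left out, and that of Tff3 with AAV-Ly6d replicate 1 left out. Ranked by log2 fold change among the 1780 tested genes, Ly6d was at position 3 from the top, Tff3 at 5 and Sox9 at 123. Rescaling by the median ratio gave log2 fold changes of 6.11 for Ly6d, 4.51 for Tff3 and 1.72 for Sox9, against 5.79, 4.17 and 1.38 in the same order on the deposited scale. This gain was of the size of the shift of the whole table.

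Per kilobase of exon, the order of levels was Ly6d, Tff3, Sox9 in AAV-Ly6d livers, with no overlap between neighbours. Ly6d held 3698 ± 1111 normalised reads per kilobase there, Tff3 held 975 ± 850 and Sox9 held 31.2 ± 5.81 (SD, n = 3 each). The Ly6d value uses the 744 exonic bases of the mouse gene, and the length of the vector transcript is not known here. The place of Ly6d above Tff3 per kilobase rests on that length. The highest Tff3 library, at 1953 per kilobase, came close to the lowest Ly6d library, at 2418, and both values are from AAV-Ly6d replicate 2. In AAV-GFP livers Ly6d held 111 ± 120 per kilobase, Tff3 41.4 ± 10.1 and Sox9 12.1 ± 3.75 (SD, n = 3 each). There Ly6d ranged from 13.0 to 245 per kilobase and overlapped both other genes, so its place in that order is not separated from theirs. Tff3, from 32.5 to 52.4, stayed above Sox9, from 8.07 to 15.5.

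The spread among libraries of 1 group, which the choice of the genes did not use directly, showed that Ly6d and Tff3 were among the most variable genes of the table, each in a different group. In AAV-GFP the highest library held 18.8 times the Ly6d of the lowest, a larger ratio than in 99.0% of 1663 genes with a group mean of at least 10. In AAV-Ly6d the highest library held 4.78 times the Tff3 of the lowest, a larger ratio than in 97.5% of 1530 such genes. The median ratio over these genes was 1.39 in AAV-Ly6d and 1.71 in AAV-GFP. Ly6d had a ratio of 1.82 in AAV-Ly6d, and Tff3 one of 1.61 in AAV-GFP. Sox9 was close to these medians, with 1.45 in AAV-Ly6d and 1.92 in AAV-GFP. The minimum of 10 was chosen after the values were seen. A selection of the table by difference between groups can favour genes with a small spread, so these ranks hold inside the table only.

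**Figure D2:**
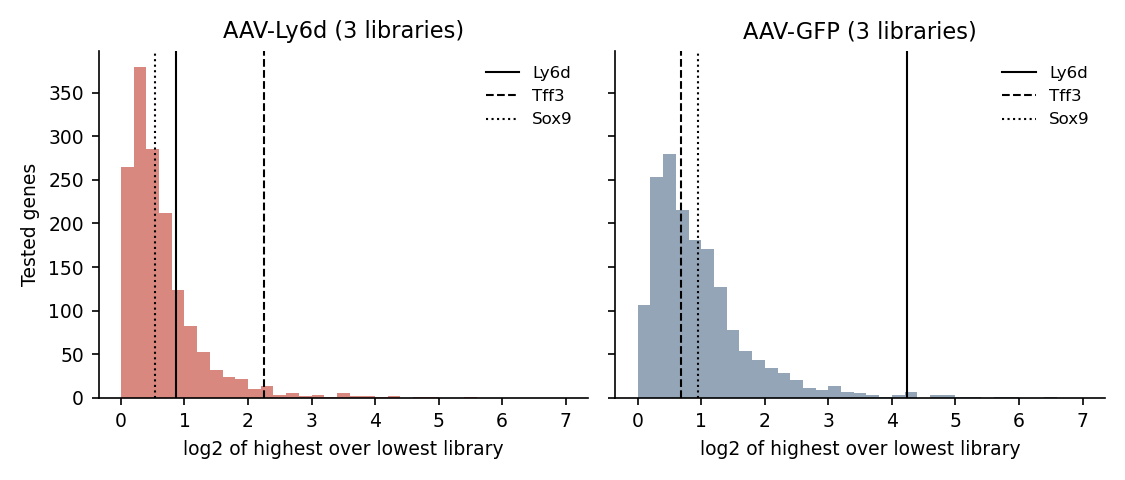
Distribution over tested genes of the log2 ratio of the highest to the lowest library within AAV-Ly6d (left) and within AAV-GFP (right), for genes with a group mean of at least 10 normalised reads and no library at 0. Vertical lines mark Ly6d (solid), Tff3 (dashed) and Sox9 (dotted). Tff3 lies in the right tail in AAV-Ly6d and Ly6d in the right tail in AAV-GFP.

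The libraries of a group were not ranked by Tff3 in the order of the vector gene, which was common among tested genes. Among AAV-Ly6d livers, replicate 2 had the least Ly6d (1799) and the most Tff3 (963) and Sox9 (148). Replicates 1 and 3, with nearly equal Ly6d (3181 and 3275), had 201 and 279 normalised reads of Tff3 and 102 and 136 of Sox9. Tff3 per unit of Ly6d was 0.535 in AAV-Ly6d replicate 2, against 0.0633 in replicate 1 and 0.0850 in replicate 3. Of the 3 pairs of AAV-Ly6d libraries, 1 was ordered alike by Ly6d and Tff3, and 1 by Ly6d and Sox9, while all 3 were ordered alike by Tff3 and Sox9. A count of 1 of 3 against Ly6d was found for 36.5% of all tested genes, so neither gene is set apart by it. The Poisson 95% intervals of Sox9 in replicates 2 and 3, 126 to 174 and 113 to 162 normalised reads, overlap, as do those of replicates 1 and 3. The same 3 of 3 agreement with Tff3 was found for 22.5% of all tested genes, so it does not set Sox9 apart.

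Among AAV-GFP livers, Sox9 followed the order of Ly6d and Tff3 ran opposite to it. Replicate 3 had the most Ly6d (182) and Sox9 (64.1) and the least Tff3 (16.0), and replicate 2 had the least Ly6d (9.68) and Sox9 (33.4) and the most Tff3 (25.8). The Poisson 95% intervals of Tff3 in these 2 libraries, 9.65 to 25.0 and 16.5 to 38.4 normalised reads, overlap, so their order is not resolved at this depth. The Sox9 interval of replicate 1, 39.3 to 68.2, likewise overlaps those of replicate 2, 22.7 to 47.3, and replicate 3, 50.5 to 80.3. All 3 pairs were ordered alike by Ly6d and Sox9, as they were for 16.4% of tested genes, and 0 of 3 by Ly6d and Tff3, as for 25.4%. Across the groups both Tff3 and Sox9 were higher where Ly6d was higher, but the 6 libraries form separate clusters and 3 libraries in each are too few for a correlation, so tracking could not be tested. AAV-Ly6d replicate 2 was the highest library of its group for 39.0% of tested genes, and AAV-GFP replicate 2 for 49.9%.

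**Figure D3:**
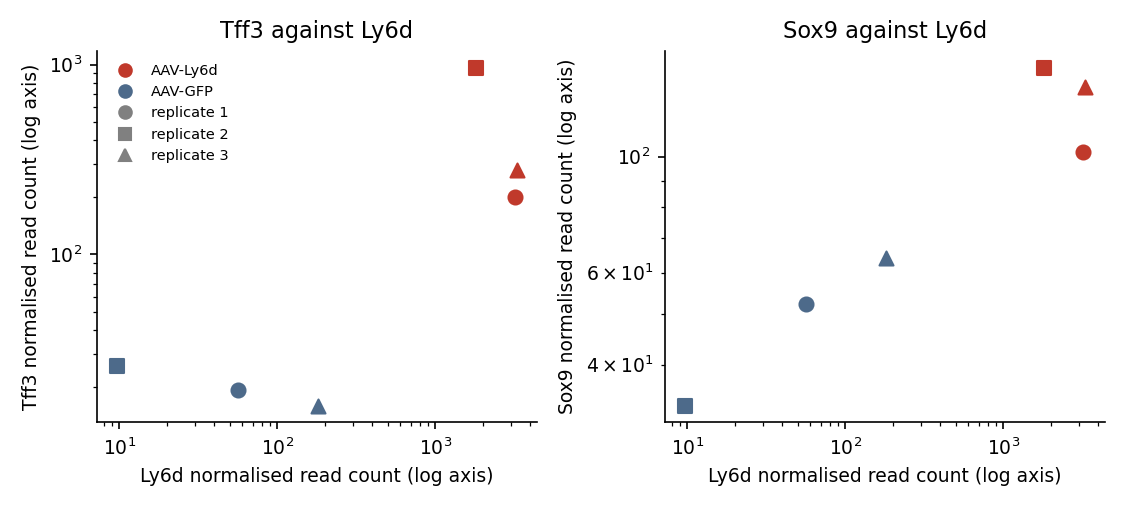
Normalised read count of Tff3 (left) and of Sox9 (right) against that of Ly6d in each library, on log axes; AAV-Ly6d is red, AAV-GFP is blue and the marker gives the replicate number. The red libraries are high on both axes. Within AAV-Ly6d the library with the least Ly6d has the most Tff3 and Sox9, and within AAV-GFP Sox9 increases and Tff3 decreases along the Ly6d axis.

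The genes most like each of the 3 over the 6 libraries had smaller differences between the groups than Ly6d and Tff3. Likeness was Pearson's r of log2(value + 1) over 6 libraries that include both groups, among named genes with a mean of at least 209, and is a description without a test. For Ly6d they were Map2k2, which encodes the kinase MEK2 (r = 0.997), the ribosomal protein genes Rpl37 (0.997) and Rpl38 (0.988), and N4bp2l1 (0.994). Rpl38 rose, with 492, 402 and 470 normalised reads in AAV-Ly6d and 235, 140 and 293 in AAV-GFP. N4bp2l1 also rose, by a log2 fold change of 0.67, whereas Map2k2 (0.38) and Rpl37 (0.42) did not pass. Map2k2 and Rpl37 passed after rescaling, in edgeR with TMM factors and in DESeq2. Pearson's r compares the shape of a profile and not its size, and all 4 log2 fold changes were far below the 5.79 of Ly6d.

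For Tff3 the closest were Dtnb, which encodes a dystrobrevin (r = 0.992), Itih2, a plasma protein of the inter-alpha-trypsin inhibitor family (0.988), Card6 (0.982) and Csad, an enzyme of taurine synthesis (0.981). Csad shared the high AAV-Ly6d replicate 2, with 4006, 8124 and 5264 normalised reads in AAV-Ly6d and 2553, 2759 and 2094 in AAV-GFP, and its log2 fold change, a rise, was 1.18 (SE 0.27, limma adjusted p = 0.0324). For Sox9 they were Pxdc1 (r = 0.990), the autophagy gene Gabarapl1 (0.986), Atp5b, a subunit of ATP synthase (0.986), and Slc16a5, a monocarboxylate transporter family gene (0.984). Slc16a5 rose by 1.08 (SE 0.23, limma adjusted p = 0.0324). Of the 12 genes 8 passed the threshold, against 43.9% of all tested genes in either direction. All 12 were on the higher side in AAV-Ly6d, as were 700 of all 1780 tested genes, and 15.9% of all tested genes passed as higher. The 12 were picked for likeness to genes that separate the groups, so nothing is read from their count against these shares. The 8 calls were 0 with any 1 AAV-Ly6d library left out, and 0, 8 or 2 with AAV-GFP replicate 1, 2 or 3 left out. An r of at least 0.95 was found for 9.04% of candidates for Ly6d, 2.09% for Tff3 and 7.29% for Sox9.

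Table genes near the 3 genes on their chromosomes lay on both sides of 0. Of 67 annotated coding genes within 1 Mb of one of them, 6 were in the table and the rest were not analysed here. In limma 0 of the 6 passed, with adjusted p between 0.0518 and 0.21, against 43.9% of all tested genes in either direction. An unadjusted p under 0.05 was found for 1 of the 6, against 1394 of all 1780 tested genes. Counts from the other tools were 2 in edgeR with TMM factors, 0 in edgeR with the authors' size factors and 4 in DESeq2. Over all 1780 genes these tools called 967, 465 and 939 in that order. Limma called 1, Them6, without AAV-GFP replicate 2, and 2, Cbs and Cpsf4l, after rescaling. Over all tested genes it called 607 and 941 in these settings, in that order. Them6, 37.4 kb from Ly6d, averaged 23.9 normalised reads in AAV-Ly6d and 50.5 in AAV-GFP. Abcg1, a sterol transporter gene 7.32 kb from Tff3, averaged 99.0 in AAV-Ly6d and 179 in AAV-GFP, the opposite side to Tff3. Near Tff3, Slc37a1, a sugar phosphate transporter gene, had 251, 77.7 and 40.3 in AAV-Ly6d and 57.1, 22.6 and 61.6 in AAV-GFP, with overlapping groups. Cbs, an enzyme of the transsulfuration pathway 479 kb from Tff3, averaged 8586 in AAV-Ly6d and 6050 in AAV-GFP. The nearest table gene to Sox9 was Sstr2, a somatostatin receptor gene 832 kb away, with 4.86, 78.7 and 15.2 in AAV-Ly6d and 8.71, 10.8 and 4.22 in AAV-GFP.

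Of the programmes that Ly6d, Tff3 and Sox9 are known for, no other tested gene passed as higher on the deposited scale. Of the 18 tested genes in 8 lists (ductal, progenitor, proliferation, Notch, Hippo-YAP, SOX, trefoil and mucosal, and GPI anchor genes), 7 fell, 11 did not pass and 0 rose in limma, where 1 was higher at an unadjusted p under 0.05. Over all tested genes 28.0% fell and 15.9% rose. Rises numbered 2 in edgeR with TMM factors, 0 in edgeR with the authors' size factors and 3 in DESeq2. Over all 1780 tested genes, rises in these tools numbered 668, 161 and 697 in that order. The median log2 fold change of the 18 was -0.95, against -0.67 for all tested genes. These lists total far more genes than the table holds, and the members outside it were not analysed here. Since no listed ductal or progenitor marker in the table rose with them, Ly6d, Tff3 and Sox9 are called by name and not as epithelial progenitor genes. With AAV-Ly6d replicate 1, 2 or 3 left out, the falls numbered 0, 2 or 1 in that order, and with AAV-GFP replicate 1, 2 or 3 left out they numbered 4, 7 or 2.

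Ductal markers in the table were lower in AAV-Ly6d. Of 28 listed genes 3 were in the table, 2 were tested and both fell. Aqp1, a water channel of bile duct cells that endothelium also makes, had 935, 825 and 957 normalised reads in AAV-Ly6d and 2476, 2159 and 2154 in AAV-GFP, and fell by 1.32 on the log2 scale (SE 0.17, limma adjusted p = 0.0141). Pkhd1, the gene of the cilium protein fibrocystin, had 95.3, 62.8 and 102 in AAV-Ly6d and 171, 410 and 151 in AAV-GFP, and fell by 1.36 (SE 0.42, adjusted p = 0.042). Dmbt1 was at 0 in all AAV-Ly6d libraries and at 2.90, 12.9 and 0 in AAV-GFP, and was too low to test. The keratins Krt7 and Krt19 and the adhesion gene Epcam, which define ductal cells, were not analysed here. The ductal falls were 0 with AAV-Ly6d replicate 1 left out, and 1 with AAV-Ly6d replicate 2 or 3 or AAV-GFP replicate 1 or 3 left out.

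Among 13 progenitor and fetal liver genes 3 were tested, of which 2 fell and 1 did not pass. Lgr5, a receptor gene of the Wnt pathway, is also a pericentral hepatocyte gene. It averaged 83.2 ± 11.9 normalised reads in AAV-Ly6d and 205 ± 84.2 in AAV-GFP (SD, n = 3 each). The glypican gene Gpc3 averaged 2.04 ± 0.122 in AAV-Ly6d and 14.6 ± 9.58 in AAV-GFP. Its AAV-Ly6d values of 1.94, 1.99 and 2.18 lie near the floor, where 1 read is worth 0.972, 0.997 and 1.09 in that order. The small SD there reflects the size factors and does not measure agreement between libraries. The telomerase gene Tert, which overlapped between groups, averaged 55.5 in AAV-Ly6d and 105 in AAV-GFP. The falls were 1 without AAV-GFP replicate 1 or 2, and 0 without any 1 of the other 4 libraries. Of the proliferation list 2 of 14 genes were tested and neither passed. Mki67, a marker of cycling cells, had a log2 fold change of -0.87, and the cyclin gene Ccne1 one of 1.42. Ccne1 passed after rescaling (1.73), in edgeR with TMM factors (2.03) and in DESeq2 (2.13).

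Of the tested genes in the Notch and Hippo-YAP lists, only Hes1 was on the higher side in AAV-Ly6d. In the Notch list 2 of 20 genes were tested and neither passed. Hes1, a Notch target that encodes a repressor, had 131, 178 and 226 normalised reads in AAV-Ly6d and 121, 34.4 and 126 in AAV-GFP, a log2 fold change of 1.10, and passed in DESeq2 alone (1.18). Maml2, a Notch coactivator gene, had a log2 fold change of -1.16. In the Hippo-YAP list 4 of 24 genes were tested, 2 fell and 2 did not pass. Amotl1, an angiomotin family scaffold that binds YAP, had 129, 94.7 and 122 in AAV-Ly6d and 306, 928 and 289 in AAV-GFP, and fell by 1.92. Tead1, the DNA-binding partner of YAP, fell by 0.91, but did not pass after rescaling (-0.57), in edgeR with TMM factors (-0.66) or in DESeq2 (-0.58). The phosphatase gene Ptpn14 had a log2 fold change of -1.16 and Wwtr1, which encodes the YAP relative TAZ, one of -0.76. The Hippo-YAP falls were 1 without AAV-GFP replicate 1 or 3 and 0 without any 1 of the AAV-Ly6d libraries.

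The relatives of the 3 genes were nearly absent from the table. Of 18 other SOX genes 1 was tested, Sox13, with 132, 209 and 129 normalised reads in AAV-Ly6d and 85.1, 80.7 and 110 in AAV-GFP. Its log2 fold change of 0.74 did not pass, but passed after rescaling (1.08), in edgeR with TMM factors (1.03) and in DESeq2 (1.08). Of 21 trefoil and mucosal genes 2 were tested. The chemokine-scavenging receptor gene Ackr3 fell, with 1.94, 5.98 and 1.09 in AAV-Ly6d and 11.6, 21.5 and 42.2 in AAV-GFP, and Klf4, an epithelial transcription factor gene, had a log2 fold change of -0.99. With AAV-GFP replicate 2 left out 2 of them passed, and with AAV-Ly6d replicate 1 or 3 or AAV-GFP replicate 3 left out 0 did. Of 29 GPI anchor genes, whose enzymes build the anchor that Ly6d carries, 2 were tested and neither passed, Pigb (-0.69) and Pigk (-0.54). The lists of 41 Ly6 and uPAR family genes, 14 B-lineage markers, 14 stratified epithelium markers and 12 macrophage markers had 0 genes in the table and were not analysed here.

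**Figure D4:**
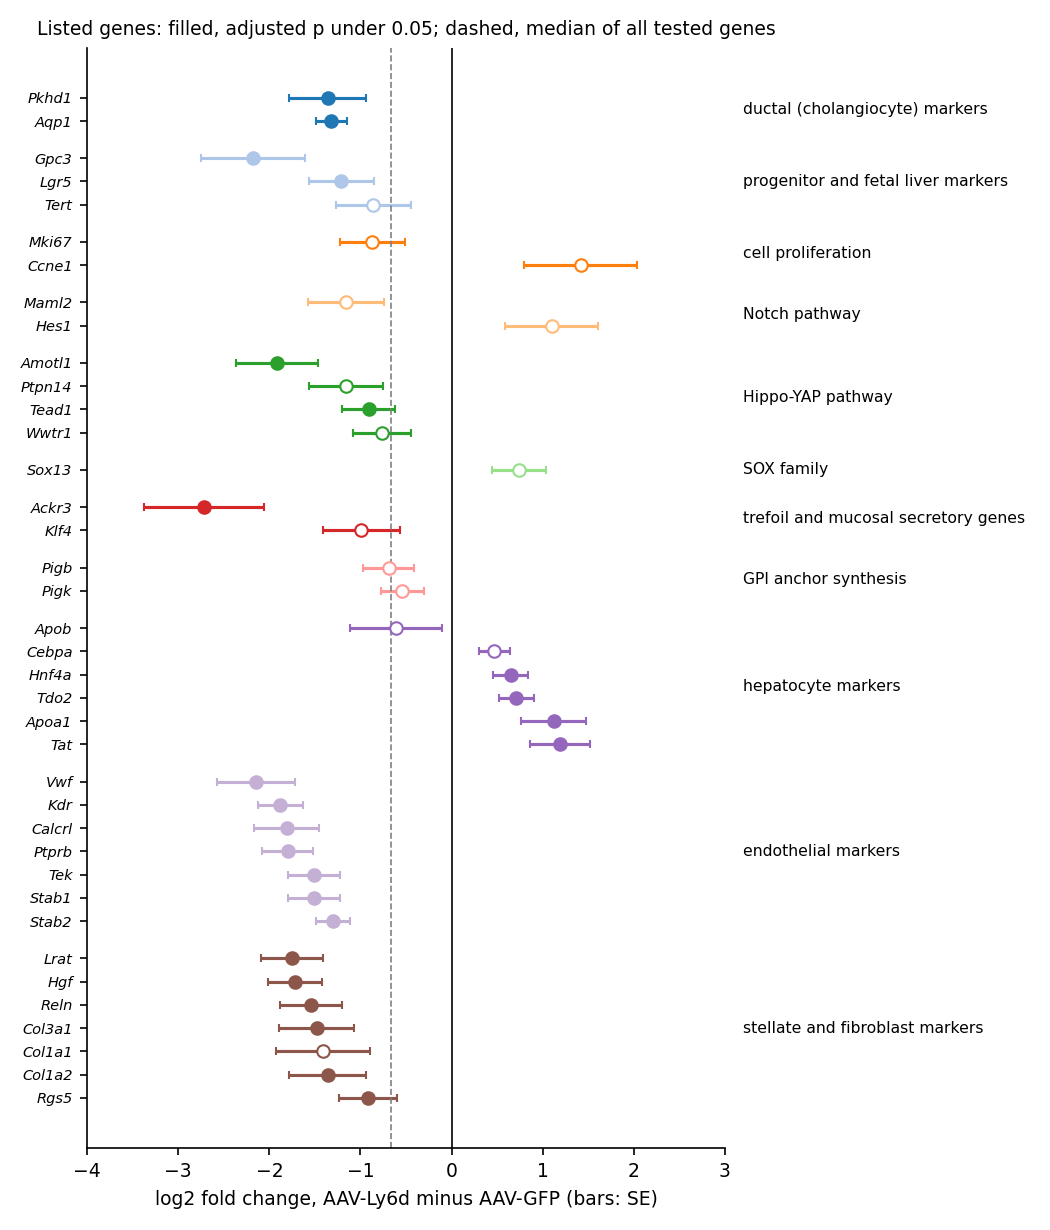
Log2 fold change of each tested listed gene, AAV-Ly6d minus AAV-GFP, with its SE as a bar; genes are grouped by list, and filled points have a limma adjusted p under 0.05. The dashed line is the median of all tested genes, -0.67. Ductal and progenitor genes lie left of 0, endothelial and stellate genes lie left of it as well, and hepatocyte genes except Apob lie right.

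Markers of other liver cells moved in the same contrast as the 3 genes, and their part in the differences of Ly6d, Tff3 and Sox9 was not tested. Of 12 endothelial markers 7 were tested and all 7 fell, in a table where 28.0% of tested genes fell and 15.9% rose. Their summed level was 2091 to 2788 normalised reads in AAV-Ly6d and 5784 to 10146 in AAV-GFP, and Kdr and Stab2, with log2 fold changes of -1.88 and -1.30, had the smallest p. Of 12 stellate and fibroblast markers 7 were tested and 6 fell, among them Hgf (-1.72) and Lrat (-1.75), with a sum of 1078 to 2424 in AAV-Ly6d and 3494 to 5107 in AAV-GFP. Of 12 hepatocyte markers 6 were tested, 4 rose, 2 did not pass and 0 fell, and 0 had an unadjusted p under 0.05 in the lower direction. Tdo2 (0.71) and Tat (1.19) had the smallest p, and 0 fell in edgeR or DESeq2. The hepatocyte sum overlapped, with 433963 to 477240 in AAV-Ly6d and 343343 to 834428 in AAV-GFP, where the top value is AAV-GFP replicate 2 with its 743167 normalised reads of Apob. With AAV-Ly6d replicate 1 or 3 left out the endothelial falls were 0 or 1, and the stellate falls were 0 in both cases. With AAV-GFP replicate 1, 2 or 3 left out the stellate falls were 3, 4 or 3. The hepatocyte count was 5 without AAV-GFP replicate 2 and 0 without any 1 of the other libraries.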

How the data were processed

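The deposited values are normalised read counts (a non-negative signal) of 1834 genes in 6 liver libraries. The submitters' processing notes name Bowtie 0.12.2 and mm10. No source used here states how reads were counted or normalised, or whether strand was used. In every deposited column the values were whole multiples of the value of 1 read (100% within 0.001), which allowed whole reads to be recovered. GENCODE M21 gave symbols for 1833 genes.

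Differences were fitted with limma 3.58.1 in R 4.3.3 (eBayes with a trend) on log2(value + 1), without covariates. Genes needed a value of 1 or more in 3 or more libraries, which 1780 met, and p-values were adjusted over all 1780 by Benjamini-Hochberg (threshold 0.05). Genes outside the table could not enter this adjustment. Fold changes on this scale understate the change of low genes. The fit was tested on simulated data. Alternatives were DESeq2 1.42.0 and edgeR 4.0.16 (quasi-likelihood) on recovered reads, a rescaling, other filters and pseudocounts, no trend, a replicate block and each library left out.

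The 3 genes and the 15 gene lists were chosen with earlier results of these data known. Named genes are Ly6d, Tff3 and Sox9, for each the 4 genes most like it, every tested member of the lists closest to them and the 2 tested members with the smallest p in each other list. Dmbt1, Apob, the neighbours within 1 Mb and the other genes named outside this rule were chosen after their values were seen. No promoter or protein sequence of the 3 genes was used here.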

Additional observations from a re-analysis of the deposited data

How the results depend on the processing

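The log2 fold changes of the 3 genes kept their direction in all 16 alternatives, from 4.70 to 6.75 for Ly6d, 3.50 to 4.90 for Tff3 and 1.12 to 1.72 for Sox9, and each moved by less than the SD between replicates. Since their groups do not overlap, leaving out 1 library or changing the filter, pseudocount, trend or block could not reverse the direction of these 3 genes. Their calls did not all hold, since that of Sox9 was lost in 5 alternatives (the replicate block and 4 with 1 library left out), that of Ly6d in 2 and that of Tff3 in 1. The number of genes called did not hold. It was 782 with all libraries, 465 in edgeR with the authors' size factors, and 0 to 607 with 1 library left out. The deviations of same-numbered libraries correlated at -0.02, -0.047 and -0.058, and those of differently numbered libraries at -0.075 to 0.089. With 3 libraries a group these values cannot settle whether the replicate numbers pair the libraries. With the replicate block 48 genes were called.

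With the replicate block the called members numbered 0 in the Hippo-YAP, hepatocyte, progenitor and trefoil lists, 1 in the ductal list and 3 in the stellate list. Without a trend they were 1 in the Hippo-YAP list, 1 in the ductal list and 2 in the hepatocyte list. After rescaling they were 1 in the Hippo-YAP, SOX and proliferation lists, with the same counts in edgeR with TMM factors and in DESeq2, where the Notch list also had 1. With a value of at least 10 required the progenitor count was 1, since Gpc3 did not meet that filter. With 1 library left out the counts ranged from 0 to 2 for Hippo-YAP, ductal and trefoil genes, 0 to 1 for progenitor genes, 0 to 7 for endothelial, 0 to 5 for hepatocyte and 0 to 6 for stellate genes. The causes were not tested. Tff3 in AAV-GFP rests on 63 reads, so its order among those libraries is not resolved, and the genes outside the table limit every list count.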
